A study of Drosophila melanogaster with 78 samples.

Results

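The genes described here build and remodel chitin in the fly embryo: kkv, knk, serp, verm, Cda4, obst-E and Cht6. They were chosen by name, as every probe set whose gene symbol is 1 of these 7. That gave 14 probe sets of 13966 tested, and all 7 genes were found. In a study of axon guidance mutants and transgenics, RNA of entire Drosophila melanogaster stage 15 embryos had been hybridised to 78 Affymetrix arrays, which form 18 groups. There were 5 arrays each of WT, slit.robo, UC2x, URyf, URyf.mef and UNC5. There were 4 each of slit, slit/WT, robo, robo/WT, comm, comm/WT, robo2, robo12, FRM, UC, UR and UR2. The labels call comm a mutant and give no allele, driver, background strain or dose for any group, and they do not expand FRM, UC, UC2x, UNC5, UR, UR2, URyf, URyf.mef or robo12. All groups share the stage and the tissue, which is the whole embryo.

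Chitin is a polymer of N-acetylglucosamine that epidermal and tracheal cells extrude at their apical surface, and it forms the scaffold of the cuticle and, for a time, a cable inside the growing tracheal tubes. A chitin synthase in the apical membrane makes the fibres, extracellular proteins order them, deacetylases alter their chemistry, chitin-binding proteins pack them, and chitinases cut them. In the trachea of mid-to-late embryos these steps limit how long and how wide the tubes become.

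The values are log2 of the deposited intensities, and a difference of 1 on this scale is a doubling. Levels are given as the mean ± SD over arrays and differences ± SE of a fit to all 78 arrays in limma, with p-values adjusted by Benjamini-Hochberg over all 13966 probe sets. A difference was called when its adjusted p was under 0.05. For a gene with several probe sets, the set with the highest mean stands for it. These 7 probe sets lay between percentile 91.6 and 99.4 of all mean levels, so all are bright. The brightest decile of all probe sets had a median difference from WT of up to 0.19, in slit/WT. After quantile normalization that shift was near 0. The SD of log2 values per array, a measure of how wide the array's range is, ran from 1.70 in UC to 1.80 in URyf.mef by group mean, and 6 arrays stood over 0.05 from the median of their group: URyf replicates 1 and 2, WT replicate 1, robo replicate 4, slit replicate 4 and slit.robo replicate 5. In whole embryos, fewer cells of a type and less RNA per cell cannot be told apart. Titles call the replicates biological and descriptions call them technical, so the p-values may measure technical spread only.

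Against WT, the chitin genes rose more often than they fell. Over 7 genes and 17 groups, 69 of 119 differences were called (58%), where 39.8% of all probe sets were called over the same comparisons. Of these, 53 were higher and 16 lower, or 44.5% and 13.4%, beside 16.4% and 23.4% of all probe sets. The rises were uneven among the genes, since Cht6 gave 17 of them and obst-E 16. After quantile normalization the split was 35 higher and 41 lower, and with array SD as a covariate it was 34 and 29, so the split between higher and lower turned with the scaling. On the probe set that stands for the gene, the calls kept in the fits of all groups, in a fit of the 2 groups alone and with each array left out were 16 for Cht6, 12 for obst-E, 3 for knk, 2 for Cda4, 1 each for kkv and verm and 0 for serp. Another probe set of the same gene did not always share them, as described for Cht6, obst-E, Cda4 and serp. Every array of the group lay above every WT array in 46 of 119 cases (38.7%, background 9.98%) and below in 7 (5.88%, background 12.5%). All 17 comparisons share the WT arrays and are not independent of each other.

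By group, the widest response was in UC and slit.robo, where 6 of 7 genes were called (27.8% and 57.1% of all probe sets). In UC Cht6, obst-E and Cda4 were higher and kkv, knk and serp lower, and in slit.robo the same 3 rose with verm while kkv and knk fell. Of 7 genes, 5 were called in UC2x (58.9%), UNC5 (54.2%), comm/WT (54.5%), robo (16.6%) and slit/WT (62.7%). In UC2x, UNC5 and slit/WT all 5 were higher. There were 4 calls in URyf.mef (65.0%), comm (27.4%), robo/WT (46.6%), robo2 (25.6%) and slit (40%), and 3 in FRM (40.8%) and UR2 (37.7%). In UR (33.2%), URyf (9.78%) and robo12 (18.6%) Cht6 and obst-E alone were called, both higher. Shares in brackets are those of all probe sets called in the same comparison. In this fit of all groups, the share of chitin genes called exceeded the background most clearly in UC and robo. In FRM and UR2 it was about the background, and in UR and URyf.mef it was below it. Fits of 2 groups alone kept fewer of these calls. With robo and WT alone, kkv, knk and Cda4 were lost (adjusted p = 0.07, 0.0869 and 0.223). With slit.robo and WT alone, kkv and knk were lost (0.0508 and 0.103). With UC and WT alone, Cda4 and serp were lost (0.0682 and 0.245).

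**Figure D1:**
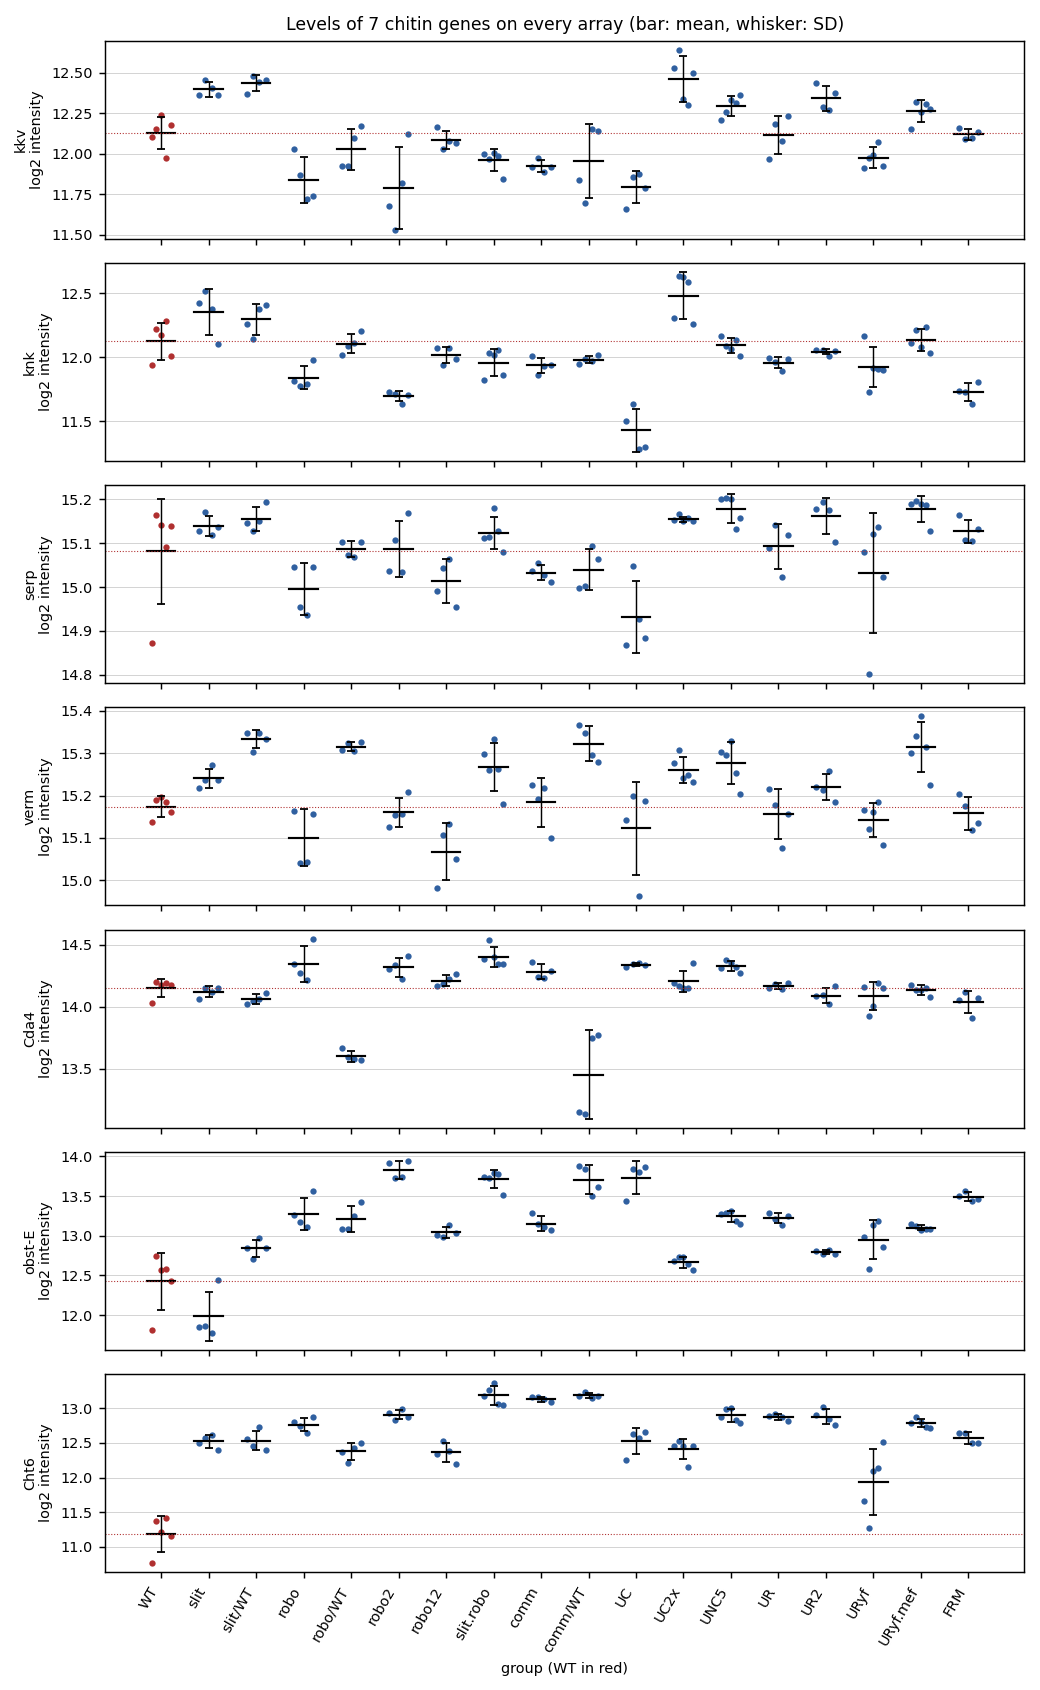
Log2 intensity of each chitin gene (1 panel each, y axis) on every array of the 18 groups (x axis). Points are arrays, bars are group means, whiskers are 1 SD, and the dotted line is the WT mean. WT (red) was the lowest group on the Cht6 probe set that stands for the gene, at 11.19. For kkv and knk, WT lay inside the range of the other groups.

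The levels of all 7 genes differed among the 18 groups in a moderated F test, and they did so again among the 17 groups other than WT. These tests called 97.2% and 96.7% of all probe sets, so passing them sets no gene apart. The size of the variation did differ. The SD of the 18 group means was 0.48 for Cht6 and 0.48 for obst-E, which is at percentile 99.1 of all probe sets for both. For Cda4 and knk it was 0.25 each, and for kkv it was 0.22. For serp it was 0.07 and for verm 0.08, at percentiles 4.9 and 11.5, where the median of all probe sets was 0.13. These values are of single probe sets, and the others of a gene could differ: the second serp set had an SD of 0.23 (percentile 87.5), and the other Cht6 sets had 0.14 and 0.12 (percentiles 60.1 and 43). The serp and verm sets with the small SD were also near the top of the brightness range, at percentiles 99.3 and 99.4.

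The kkv gene encodes the chitin synthase of the epidermis and trachea. Its level in WT was 12.10, 12.16, 12.24, 11.97 and 12.18 on the 5 arrays. The highest group was UC2x, with 12.53, 12.64, 12.34, 12.30 and 12.50, and the lowest was robo2, with 11.68, 11.53, 11.82 and 12.12. All 5 UC2x arrays lay above all WT arrays, while robo2 overlapped WT through its replicate 4. Against WT, kkv was called higher in 5 groups (UC2x, slit/WT, slit, UR2 and UNC5) and lower in 6 (robo2, UC, robo, comm, comm/WT and slit.robo). The rise in UC2x was 0.33 ± 0.07 (adjusted p = 6.85e-05) and the fall in UC was -0.34 ± 0.08 (adjusted p = 0.000285). UC was the 1 group whose 4 arrays (11.66, 11.85, 11.87 and 11.79) all lay below WT. None of the 5 rises passed after quantile normalization, where 7 falls did, and UNC5 then stood at -0.04. The fall in comm/WT (-0.17) became 0.02 without replicates 1 and 2 of that group, which are described with Cda4. No 2 neighbours among the 17 steps in the order of groups were separated beyond their arrays.

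The knk gene encodes an extracellular protein that kkv-made chitin needs to become ordered. Its WT arrays read 11.94, 12.22, 12.17, 12.28 and 12.01. The UC arrays read 11.51, 11.63, 11.28 and 11.30, all below WT, and the fall was -0.69 ± 0.07 (1.62-fold, adjusted p = 3.07e-12). The UC2x arrays read 12.31, 12.63, 12.62, 12.59 and 12.26. Replicate 5 of UC2x fell within the WT range, and the rise of the group was 0.36 ± 0.07 (adjusted p = 1.58e-05). In FRM (11.73 ± 0.07, SD, n = 4) and robo2 (11.70 ± 0.04, SD, n = 4) all arrays lay below WT too, by -0.40 ± 0.07 and -0.43 ± 0.07. The calls against WT were 3 higher (UC2x, slit and slit/WT) and 6 lower (UC, robo2, FRM, robo, comm and slit.robo). The falls in UC, robo2 and FRM passed in all settings tried. The 3 rises did not. After quantile normalization knk was called higher in 1 group and lower in 13, and with array SD as a covariate in 0 and 13. With that covariate the UC2x rise was 0.11 (adjusted p = 0.221) and the slit rise 0.05 (adjusted p = 0.653). The rise in slit/WT (0.17) turned to -0.03 after quantile normalization and to -0.08 with array SD as a covariate.

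The serp and verm genes encode secreted chitin deacetylases that reach the tracheal lumen and restrict tube length. They neighbour each other in the RefSeq annotation (Release 6 plus ISO1 MT), with 0 genes listed between them. The serp level ran only from 14.93 ± 0.08 (SD, n = 4) in UC to 15.18 ± 0.03 (SD, n = 5) in UNC5. Its WT arrays read 14.87, 15.17, 15.14, 15.09 and 15.14, with replicate 1 well below the other 4, and no group lay clear of WT. Against WT, serp was called lower in UC by -0.15 ± 0.05 (adjusted p = 0.00863) and higher in URyf.mef by 0.10 ± 0.04 (adjusted p = 0.0451). With array SD as a covariate the URyf.mef value was -0.06. The calls were 0 higher and 7 lower after quantile normalization, 0 and 4 with that covariate, and 0 and 5 without the arrays that stood apart. The other serp probe set moved more widely: it was called higher in 11 groups and lower in 1, from -0.30 in comm to 0.51 in slit, and in UC it stood at 0.33, against the direction of the first. The group means of the 2 serp probe sets had a correlation of 0.58 over 18 groups. The WT arrays of this probe set spread from 12.24 to 13.05.

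The verm level ran from 15.07 ± 0.07 (SD, n = 4) in robo12 to 15.33 ± 0.02 (SD, n = 4) in slit/WT. Its WT arrays read 15.14, 15.19, 15.20, 15.19 and 15.16, and those of slit/WT read 15.35, 15.30, 15.35 and 15.33. The groups did not overlap, and the rise was 0.16 ± 0.04 (1.12-fold, adjusted p = 0.000496). Against WT, verm was called higher in 7 groups (slit/WT, comm/WT, robo/WT, URyf.mef, UNC5, slit.robo and UC2x) and lower in 0, with 10 at an adjusted p over 0.05. After quantile normalization the calls were 3 higher and 3 lower, and with array SD as a covariate 1 and 1. The rise in comm/WT had an adjusted p of 0.068 without its replicates 1 and 2. The rise in robo/WT (0.14 ± 0.04, adjusted p = 0.00307) passed in all settings tried. The verm and serp group means rose with the array SD (correlations of 0.82 each over 18 groups), and the part of the array SD in these small differences was tested only through that covariate.

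Cda4 encodes a further chitin deacetylase and is covered by 4 probe sets. On the set that stands for the gene, its furthest values from WT came from the groups comm/WT and robo/WT. The WT arrays read 14.03, 14.20, 14.18, 14.19 and 14.17, those of robo/WT 13.67, 13.60, 13.58 and 13.57, and those of comm/WT 13.16, 13.14, 13.75 and 13.77. All 8 arrays lay below WT. The falls were -0.55 ± 0.07 in robo/WT (adjusted p = 3.22e-09) and -0.70 ± 0.07 in comm/WT (adjusted p = 5.58e-13). The mutants robo (14.35 ± 0.14, SD, n = 4) and comm (14.28 ± 0.06, SD, n = 4) lay above WT on every array. The mutant exceeded its /WT group by 0.74 ± 0.07 for robo (adjusted p = 1.7e-12) and by 0.83 ± 0.07 for comm (adjusted p = 8.78e-14). In slit and slit/WT no such gap was seen on this set, with 14.12 ± 0.04 and 14.06 ± 0.04 (SD, n = 4 each). The difference was 0.06 ± 0.07 (adjusted p = 0.58). Each of the other Cda4 sets was called higher in slit than in slit/WT. Their means were 13.840 against 13.429 (difference 0.41, adjusted p = 0.016), 12.655 against 12.269 and 11.927 against 11.345.

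The groups comm/WT and robo/WT had the largest 3'-minus-5' difference of the GAPDH control probe sets, which grows when RNA is degraded or labelling is short. It was 1.71 ± 0.13 (SD, n = 5) in WT, 2.19 ± 0.16 in robo/WT and 2.28 ± 0.57 in comm/WT (SD, n = 4 each). In comm/WT the arrays split: replicates 1 and 2 stood at 2.80 and 2.75 and replicates 3 and 4 at 1.81 and 1.78, and the 2 arrays with the high values were the 2 with the lowest Cda4. Over the 18 group means the correlation of Cda4 with this difference was -0.72, and over the 4 probe sets it ran from -0.66 to -0.75. The Cda4 differences were smaller with allowance for it. Without comm/WT replicates 1 and 2 the fall in comm/WT was -0.39 (adjusted p = 1.26e-06), and with the GAPDH difference as a covariate it was -0.53 in comm/WT and -0.41 in robo/WT. Over all the settings tried, which swap in the second probe set alone, both falls kept their direction and their call. On the sets other than the representative one, only replicates 1 and 2 of comm/WT lay below every WT array. On the set with the lowest mean, comm/WT replicates 3 and 4 read 11.49 each, above every WT array (10.75 to 11.13). The comm/WT fall was not called there.

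**Figure D2:**
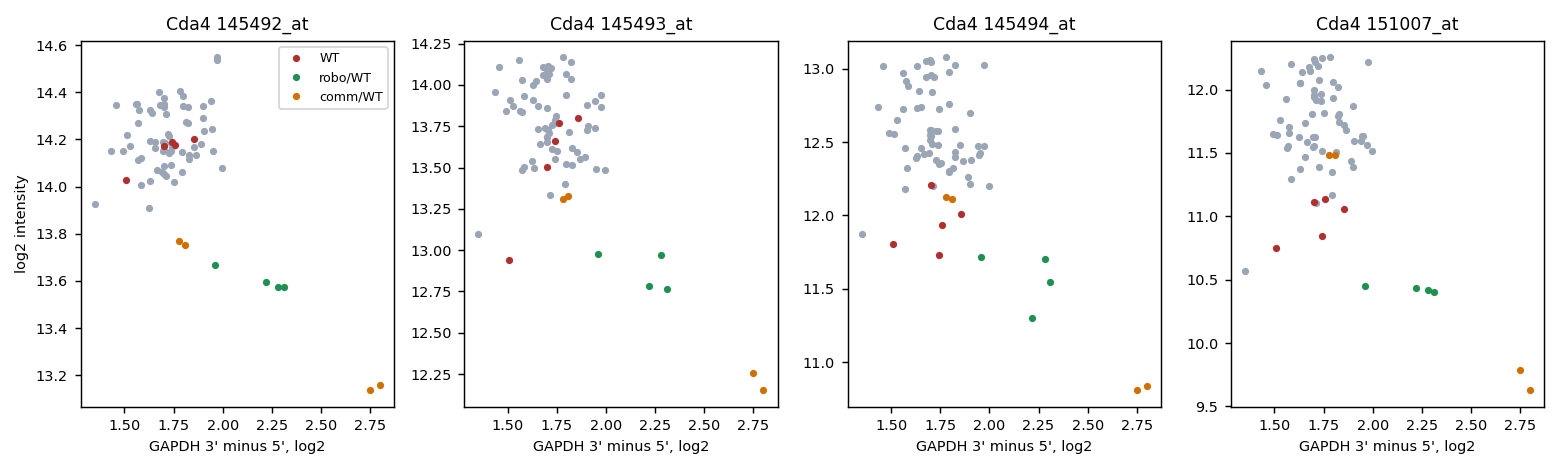
Log2 intensity of the 4 Cda4 probe sets (y axis, 1 panel each) against the 3'-minus-5' log2 difference of the GAPDH control (x axis), with 1 point per array. The 2 comm/WT arrays at 2.75 and 2.80 are lowest in the panels, the 4 robo/WT arrays lie between 1.96 and 2.31 and are low in each panel, and the other comm/WT arrays sit at 1.78 and 1.81.

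In other groups the direction of Cda4 depended on the scaling and the probe set. The representative set was called higher in slit.robo (0.25 ± 0.07, adjusted p = 0.00135), robo, UC and UNC5. None of these 4 rises was called after quantile normalization, where slit.robo and UNC5 turned to -0.12 and -0.15 and robo and UC stood at 0.03 and 0.06, and Cda4 was then called lower in 10 groups. With array SD as a covariate the calls were 1 higher and 4 lower. The robo and UC calls also failed in the fits of 2 groups (adjusted p = 0.223 and 0.0682) and without WT replicate 1 (0.151 and 0.091). The other sets were called higher in 6, 14 and 13 of 17 groups and lower in 2, 2 and 1. On the set with the widest range, WT read 10.75, 11.06, 11.13, 10.84 and 11.11, and UNC5 read 12.14, 12.22, 12.24, 12.05 and 12.02. The UNC5 arrays lay above every WT array on that set, by a mean of 1.155, and the difference on the representative set was 0.17 ± 0.07. The group means of the 4 sets moved together, with correlations of 0.81 to 0.96 over 18 groups, but the place of WT among them differed. From the highest group down, WT ranked 10 on the representative set and 14, 16 and 16 on the others. The direction against WT could thus turn with the set. The slit mean was 14.12 beside 14.15 in WT on the representative set, and 11.93 beside 10.98 on the set with the widest range. The UC arrays were close together on the representative set, at 14.32, 14.35, 14.35 and 14.34.

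The obst-E gene encodes a chitin-binding protein of the Obstructor family that shapes the cuticle of the larva. Its WT arrays read 11.82, 12.74, 12.56, 12.58 and 12.43, with replicate 1 far below the others. The highest group was robo2, at 13.92, 13.73, 13.74 and 13.94, and the rise was 1.40 ± 0.11 (2.65-fold, adjusted p = 6.49e-18). It was followed by UC (13.73 ± 0.20, SD, n = 4), slit.robo (13.71 ± 0.11, SD, n = 5) and comm/WT (13.71 ± 0.18, SD, n = 4). In all, obst-E was called higher in 16 groups, with a median difference of 0.79 over the 17 groups, and 13 groups lay wholly above WT. The exception was slit, at 11.86, 11.86, 11.78 and 12.45. Here 3 arrays lay near the lowest WT array and replicate 4 lay within the WT range, and the difference was -0.44 ± 0.11 (adjusted p = 0.00104). In a fit of slit and WT alone that call was lost (adjusted p = 0.116). Without the arrays that stood apart, slit replicate 4 and WT replicate 1 among them, it was -0.75 (adjusted p = 1.03e-11). The rise in UC2x (0.24) became -0.06 with array SD as a covariate, and 14 rises were called after quantile normalization. The second obst-E probe set was called higher in 10 groups and lower in slit, with group means that correlated at 0.85 with the first.

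Cht6 encodes a chitinase, and its representative probe set was called higher than WT in all 17 groups. The WT arrays read 10.77, 11.38, 11.22, 11.41 and 11.16. The highest groups were comm/WT (13.18, 13.24, 13.15 and 13.17) and slit.robo (13.18, 13.26, 13.36, 13.07 and 13.05), each 2 log2 units above WT (4-fold, SE 0.11 and 0.10, adjusted p = 2.91e-24 and 4.92e-26). The arrays of 16 groups lay wholly above WT. URyf overlapped it, with 11.66, 11.27, 12.09, 12.15 and 12.51, a spread of 0.48 (SD, n = 5) that was the widest of any group for this gene. The URyf rise of 0.75 ± 0.10 (adjusted p = 1.05e-07) had an adjusted p of 0.15 in a fit of the 2 groups alone. The other 16 calls passed in all settings tried that keep this probe set and compare with WT. Without the arrays that stood apart, the 17 rises ran from 0.96 to 1.93. The F test without WT (F = 18.5, adjusted p = 9.48e-18) shows that Cht6 also differed among the other groups.

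The other 2 Cht6 probe sets did not share this rise. They were called higher in 5 and 2 groups and lower in 3 and 2, and their differences from WT stayed between -0.21 and 0.29. On the brighter of them, WT read 10.23, 10.32, 10.28, 10.27 and 10.21, and comm/WT differed from it by 0.07 (adjusted p = 0.299). Their group means correlated with each other at 0.73 and with the first probe set at 0.21 and 0.07 over 18 groups. RefSeq lists 7 transcripts and 3 older locus tags for Cht6, and which transcripts each probe set reads was not tested, so the rise is a rise of 1 probe set of 3.

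**Figure D3:**
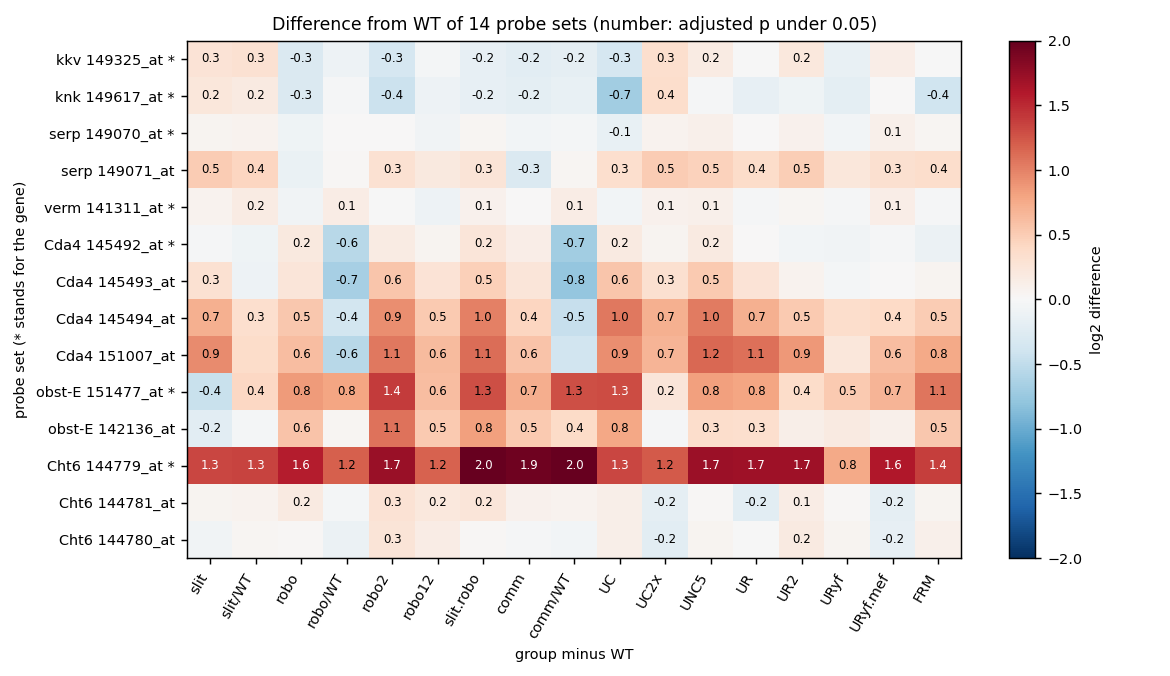
Log2 difference from WT (colour) for all 14 probe sets (rows, a star marks the one that stands for the gene) in 17 groups (columns). A number is printed where the adjusted p was under 0.05. The first Cht6 row is called in 17 columns, and the other Cht6 rows reach at most 0.29. The Cda4 rows are negative in robo/WT. The Cda4 values of slit.robo and UNC5 in the starred row turn negative after quantile normalization.

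Comparisons between related groups do not use WT. Over 13 of them, 42 of 91 differences of the 7 genes were called (46.2%, background 26.9%), 27 higher (29.7%, background 12.6%) and 15 lower (16.5%, background 14.2%). The calls kept in the fits of all groups, in a fit of the 2 groups alone and with each array left out were 7 for obst-E, 5 each for Cht6 and knk, 3 for kkv, 2 for Cda4, 1 for verm and 0 for serp. Between UC2x and UC, kkv, knk, serp and verm were higher in UC2x and obst-E was lower, so that 5 of 7 genes were called, near the background of 69.1%. The knk difference was 1.05 ± 0.07 (2.07-fold, adjusted p = 4.19e-20) and the kkv difference 0.67 ± 0.07 (1.59-fold, adjusted p = 1.23e-11). The obst-E difference was -1.07 ± 0.11 (adjusted p = 4e-13). No UC array overlapped a UC2x array for these 3 genes.

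The slit and robo mutants differed in 6 of 7 genes (background 24%). In slit, kkv was higher by 0.56 ± 0.08, knk by 0.51 ± 0.08, serp by 0.14 ± 0.05 and verm by 0.14 ± 0.04, while obst-E was lower by -1.29 ± 0.11 (adjusted p = 5.67e-15) and Cda4 by -0.22 ± 0.07. Here the synthase and its partner moved one way and the chitin-binding protein the other, and these 3 calls were kept in all fits of the probe set. The others were not: in a fit of the 2 groups alone the adjusted p was 0.129 for serp, 0.145 for verm and 0.0704 for Cda4, and Cda4 was 0.06 on its second probe set. The slit.robo group differed from slit in 5 genes (background 17.2%), with obst-E higher by 1.73 ± 0.11 (3.31-fold, adjusted p = 5.52e-22), Cht6 by 0.66 and Cda4 by 0.28, and with kkv and knk lower by -0.44 and -0.40. That obst-E difference was the largest of the 91. The Cda4 call was lost with quantile normalization (0.14, adjusted p = 0.15) and on the second probe set (0.17, adjusted p = 0.408). From robo, slit.robo differed in 4 genes (background 28.7%): Cht6, obst-E, serp and verm were all higher. All 4 calls were lost with array SD as a covariate (adjusted p = 0.326, 0.207, 0.848 and 0.076), and those of Cht6, obst-E and serp also with quantile normalization (0.0851, 0.0845 and 0.553).

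Of the mutants set against their /WT groups, slit differed from slit/WT in obst-E alone (-0.86 ± 0.11, adjusted p = 3.73e-08, 1 of 7 genes, background 26.3%). This holds for the probe sets that stand for the genes. On the second obst-E set the difference was -0.17 (adjusted p = 0.139), and each of the other Cda4 sets was called higher in slit. The robo group differed from robo/WT in 4 genes (background 29.1%). Cda4 and Cht6 were higher, the latter by 0.39 ± 0.12, and knk and verm were lower by -0.26 and -0.21. The representative obst-E set was not called between robo and robo/WT, but its second set was higher in robo by 0.53 (adjusted p = 2.01e-06). The comm group differed from comm/WT in 3 genes (background 21.8%), with Cda4 higher and obst-E (-0.56) and verm (-0.14) lower. Without comm/WT replicates 1 and 2 the obst-E and verm differences were -0.40 and -0.10, at adjusted p of 0.067 and 0.248. On the second obst-E set comm differed from comm/WT by 0.14 (adjusted p = 0.253), against the direction of the first.

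URyf.mef exceeded URyf in 5 genes (background 65.6%), with Cht6 at 0.85 ± 0.10 (adjusted p = 6.32e-10), kkv at 0.29, knk at 0.21, verm at 0.17 and serp at 0.15. With array SD as a covariate only the Cht6 call was kept: knk and serp turned to -0.06 and -0.01, and kkv and verm stood at 0.20 and 0.09 (adjusted p = 0.116 and 0.187). The kkv call was also lost with quantile normalization (0.09, adjusted p = 0.307). On its second probe set Cht6 went the other way, at -0.20 (adjusted p = 0.00183). URyf was below UR in Cht6 alone (-0.94 ± 0.11, adjusted p = 1.1e-09, background 28.1%), and UR2 below UR in obst-E alone (-0.43 ± 0.11, adjusted p = 0.0103, background 5.84%). On the second Cht6 set, URyf was above UR by 0.23 (adjusted p = 0.00229) and UR2 above UR by 0.36 (adjusted p = 1.86e-05). The UR2 difference on the second obst-E set was -0.21 (adjusted p = 0.182). The robo2 group exceeded robo in obst-E (0.56 ± 0.11, adjusted p = 0.000324, background 9.32%). The robo12 group had more kkv (0.25 ± 0.08, adjusted p = 0.0407) and less Cht6 (-0.40 ± 0.12, adjusted p = 0.0242) than robo, so that 2 of 7 genes were called (background 7.15%). The kkv call was lost in a fit of the 2 groups alone (adjusted p = 0.0772), and both calls were lost with the GAPDH difference as a covariate (adjusted p = 0.116 and 0.0671) and without robo replicate 4 (0.154 and 0.096), without robo12 replicate 1 (0.13 and 0.0643) or without robo12 replicate 4 (0.0746 and 0.107). The Cht6 difference was 0.02 on the second probe set. The robo12 group differed from robo2 in 4 genes (background 16.8%). The kkv and knk genes were higher by 0.30 and 0.32, and obst-E and Cht6 lower by -0.79 and -0.54. On the second Cht6 set that difference was -0.08 (adjusted p = 0.412). The kkv call was lost without robo2 replicate 2 (0.21, adjusted p = 0.0693).

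**Figure D4:**
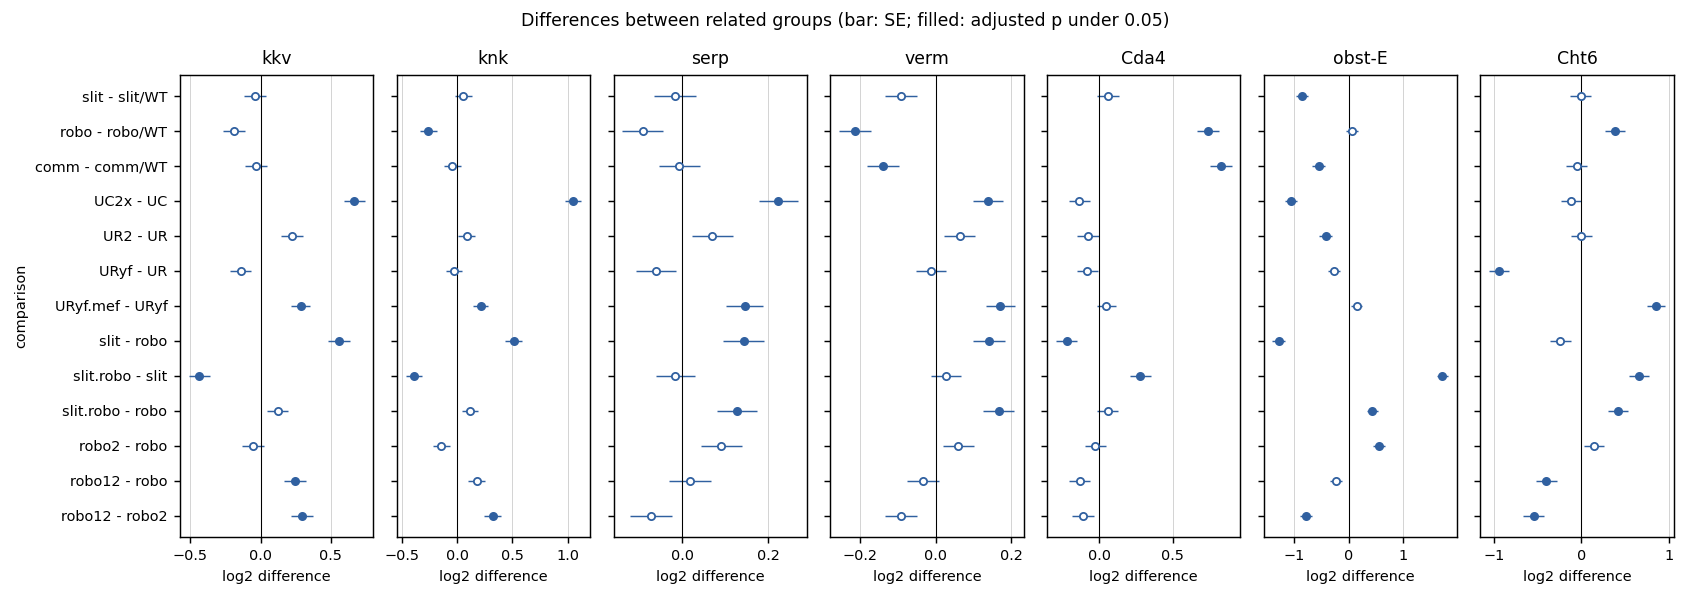
Log2 difference (x axis) in 13 comparisons of related groups (rows), 1 panel per gene, with bars of 1 SE and filled points where the adjusted p was under 0.05. The kkv and knk points lie to the right and the obst-E point to the left in UC2x - UC and slit - robo, and Cda4 lies furthest right in the robo and comm rows. The knk and serp points of URyf.mef - URyf turn negative with array SD as a covariate.

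Across the 18 group means, kkv and knk rose and fell together, with a correlation of 0.83, and both ran against obst-E, at -0.71 and -0.75. The correlation of kkv with serp was 0.79 and that of serp with verm 0.65. These values are descriptions over 18 groups that share arrays between the genes and so share array range and scaling. Within groups, the deviations of single arrays gave -0.02 for kkv with knk. The summed intensity of 4 of the 7 apical ZP protein genes listed as epidermal markers, neo, dyl, mey and zye, followed the same order. The sum rests mostly on dyl, whose WT level was 13.91. Its mean over arrays ran from 13.14 in UC (13.08 to 13.25) through 14.25 in WT (14.22 to 14.31) to 14.67 in UC2x (14.53 to 14.78), and none of the 4 was listed at 0. It correlated with knk at 0.93, with kkv at 0.88, with serp at 0.70 and with obst-E at -0.74. The genes neo, dyl and mey were called lower than WT in 10, 12 and 12 groups, whereas zye was called higher in 15. The part that the amount or maturity of epidermis has in the kkv, knk and obst-E differences was not tested.

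**Figure D5:**
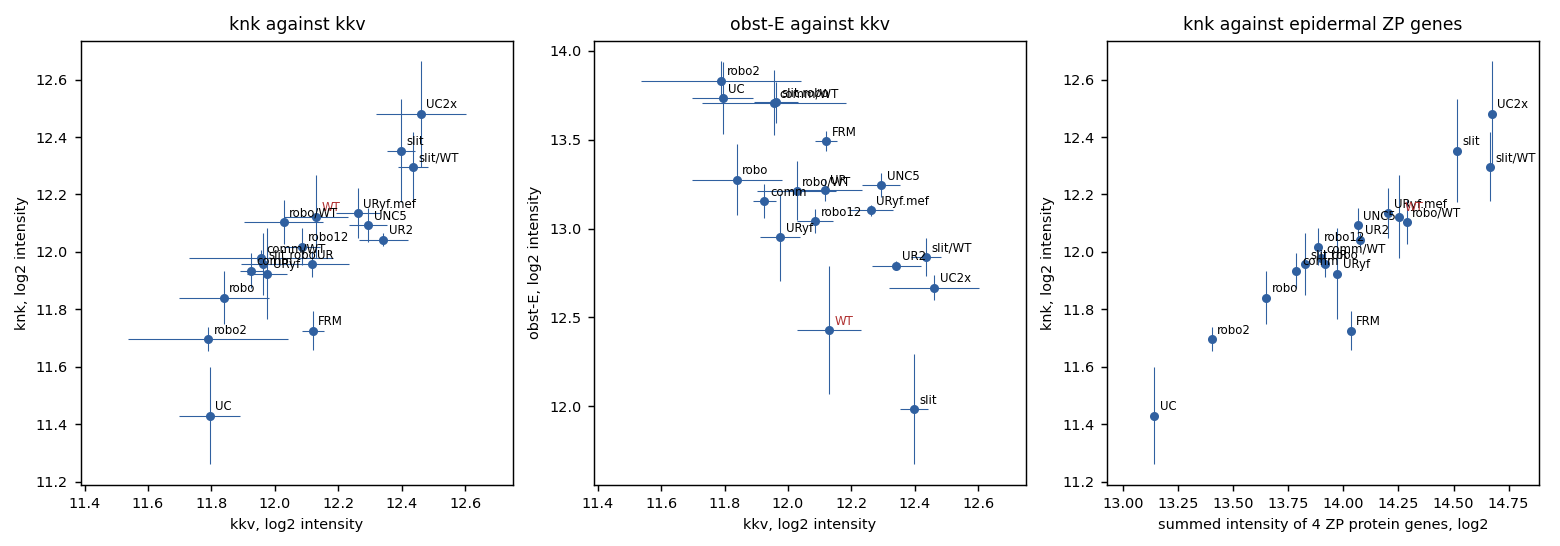
Group means of log2 intensity for knk against kkv, for obst-E against kkv and for knk against the summed intensity of 4 ZP protein genes (log2), with 1 point per group and bars of 1 SD over arrays. UC lies at the low end and UC2x at the high end for knk, and obst-E falls from robo2 (13.83) to slit (11.98) as kkv rises.

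The other genes of the pathway came from 7 lists with 58 genes, of which 49 were measured. Over the 17 comparisons with WT they gave 291 higher, 128 lower and 414 uncalled differences. That is 34.9% higher and 15.4% lower, beside 16.4% and 23.4% of all probe sets. The total of 419 calls became 400 after quantile normalization and 366 with array SD as a covariate. Whether the split between higher and lower turns with the scaling, as it did for the 7 genes, was not tested. The chitin-binding list stood highest, with 89 of 153 higher (58.2%) and 19 lower. Gasp, a chitin-binding protein of the tracheal lumen, was higher in 17 groups, with a median of 0.76 and up to 0.98 in slit.robo. Its relatives obst-H and obst-A were higher in 17 groups (medians 0.66 and 0.21), and Peritrophin-A, another chitin-binding protein, in 16 (0.54). The obst-H set is dim, at percentile 14.7 of mean levels. The obst-A set lay at percentile 99.6, and its median is near the shift of the brightest decile, which reached 0.19. The members of this list were not uniform, since obst-F was lower in 9 groups and obst-G in 4.

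The list of chitin organisation and secretion genes gave 40 higher (47.1%) and 14 lower (16.5%) of 85. The transcription factors vvl and grh, which act in trachea and epidermis, were higher in 17 and 16 groups (medians 0.35 and 0.66). The gene reb, which acts with kkv in chitin deposition, was higher in 5 and lower in 1. The ZP protein gene dyl, which also counts among the epidermal markers above, accounts for 12 of the 14 falls, with -1.58 in UC and 0.45 in UC2x. The supply of the precursor changed less. Of 4 measured genes, mmy, which makes UDP-N-acetylglucosamine, was higher in 10 groups (median 0.16). Gfat2, which feeds that pathway, was lower in 6, Chs2, the chitin synthase of the gut, was lower in 4, and Gnpnat was higher in 2 and lower in 2.

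Among the other deacetylases, Cda5 was higher in 15 groups (median 0.33), and Cda9 was lower in 10 and higher in 1. The other chitinases and the imaginal disc growth factors, their relatives without chitinase activity, gave 51 higher (21.4%) and 49 lower (20.6%) of 238. Those shares are near the 16.4% and 23.4% of all probe sets. Cht11 was lower in 14 groups (median -0.22), Cht8 lower in 10, Idgf4 higher in 11 (0.25) and Cht7 higher in 9. The Cht11 and Cht8 sets are dim, at percentiles 28.3 and 34.6 of mean levels. Idgf4 lay at percentile 98.8, where the shift of bright probe sets reached 0.19. No other member of that list was called higher in more than 6 groups, so the 17 rises of Cht6 were not shared by the list. The 2 hexosaminidase genes measured, Hexo2 and fdl, which break down short chitin chains, were higher in 7 and 4 groups and lower in 0. Septate junctions seal epithelia and are needed for serp and verm proteins to reach the tracheal lumen. Their list gave 72 higher (32.6%) and 24 lower (10.9%) of 221, beside 16.4% and 23.4% of all probe sets. It was led by nrv2 (higher in 12, up to 1.23 in comm/WT) and Lac (higher in 11). The nrv2 set is dim, at percentile 31.9 of mean levels. Of the tracheal markers, 3 of 5 were measured: pio and uif were higher in 16 and 13 groups and btl was lower in 8, and their summed level ran from 12.41 in WT (12.04 to 12.56) to 13.01 in slit/WT (12.97 to 13.05).

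Markers of other tissues were counted in the same way, where all probe sets gave 16.4% higher and 23.4% lower. The higher shares were 54.9% for muscle, 45.6% for neurons, 31.8% for hemocytes and fat body, 36.5% for midgut and 7.35% for glia. In that order, the lower shares were 0%, 0%, 24.7%, 31.8% and 17.6%, so both glial shares were below those of all probe sets. Of the muscle markers, 3 of 5 were measured, with 28 higher and 0 lower of 51 differences, and their summed level ran from 15.96 in WT, level with robo12, to 16.27 in UNC5 (16.22 to 16.31). Of the neuron markers, 4 of 5 were measured, with 31 higher and 0 lower of 68, and the sum ran from 12.31 in WT (12.23 to 12.36) to 13.09 in slit/WT. WT had the lowest mean for neuron and tracheal markers, as it had on the representative Cht6 set, and was level with robo12 for muscle markers. On the other Cht6 sets WT ranked 14 and 11 of 18 groups from the highest down. The group means of the representative Cht6 set correlated with the muscle, neuron and tracheal sums at 0.63, 0.55 and 0.53 over 18 groups. The other Cht6 sets did not share this. They gave -0.06 and -0.03 with muscle, -0.08 and -0.38 with neurons, and -0.21 and -0.17 with trachea. The verm group means correlated with hemocyte and fat body markers at 0.79 (5 of 5 measured, 27 higher and 21 lower of 85), with neuron markers at 0.72 and with glial markers at -0.79 (4 of 4 measured, 5 higher and 12 lower of 68). The hemocyte and fat body sum ran from 15.24 in URyf (14.83 to 15.57) to 15.84 in comm/WT (15.83 to 15.85), and the glial sum from 12.37 in URyf.mef (12.32 to 12.47) to 12.57 in robo (12.42 to 12.67). Midgut markers (5 of 5, 31 higher and 27 lower of 85) ran from 12.89 in slit (12.77 to 12.98) to 14.88 in UC2x (14.79 to 14.99) and correlated with the probe sets that stand for the 7 genes at 0.01 to 0.21, but with another Cht6 set at -0.59. These correlations are descriptions over group means of the same arrays, and the part of tissue make-up in the Cht6 and verm differences was not tested.

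The genes whose group means ran most like each chitin gene were sought among 1909 named probe sets with an SD of group means of at least 0.2. For Cht6 they were Mp, a collagen (correlation 0.94 over 18 groups), and the cuticle genes Cpr66D and slf (0.92 each). For obst-E they were slif, an amino acid transporter, TwdlC and Cpr62Bc, both cuticle proteins (0.92, 0.90 and 0.90). For knk they were CG8172, CG33523 and dyl (0.96, 0.94 and 0.93), and for kkv alt, CG13272 and betaTub60D (0.94, 0.93 and 0.93). Cda4 ran most like CG14200, CG44325 and Pkcdelta (0.89, 0.88 and 0.88), serp like Syb, AnxB9 and Acn (0.93, 0.91 and 0.90), and verm like Tig, CG1703 and zda (0.94, 0.93 and 0.93).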

How the data were processed

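The deposited table holds 1 intensity per probe set and array on a linear scale, made by the authors with RMA per the submitters' processing notes; its version and probe definitions: not given in the sources used here. Array medians ran from 810.4 to 857.3, and the number of arrays limits the precision. Per the labels, 6 ug of total RNA from stage 15 embryos, purified on QIAGEN columns, were labelled with biotin. Of 14010 probe sets, 44 Affymetrix controls were left out. Names came from the platform annotation, 12394 of 12443 through RefSeq. Log2 values had been planned for, so log2 of the intensities was taken first. A model of 18 group means was fitted with limma 3.58.1 in R 4.3.3 (60 residual degrees of freedom), giving 17 contrasts against WT, 13 between related groups, 1 of the mean of the other groups against WT, 17 of each group against the mean of the other 16, and 2 F tests. Tests were two-sided. Python 3.11.15 with matplotlib 3.10.9 drew the figures. The fit was tested on simulated data.

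The genes and lists were chosen with earlier results of these data known. The named genes are all probe sets of the 7 genes, up to 4 genes per pathway list by the number of calls (obst-F, obst-G and the cell type markers were named after their values were seen), and the 3 genes most like each. Settings varied were quantile normalization, dim probe sets (below percentile 40) left out, a replicate block, array weights, array SD as a covariate, the second probe set of a gene, the 2 compared groups alone, the mean of other groups in place of WT, and each array left out. The GAPDH difference as a covariate, and leaving out arrays that stand apart or have a GAPDH difference over 2.5, were chosen after seeing the data.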

Additional observations from a re-analysis of the deposited data

Results flagged for a closer look

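In 126 sets of 4 or 5 arrays (7 genes in 18 groups), 10 had 1 array far from the rest by Dixon's criterion, where chance gives about 1 in 20 sets. WT replicate 1 was low for Cda4, at 14.03 where the others lay between 14.17 and 14.20, and for serp, at 14.87 where the others lay between 15.09 and 15.17. Replicate 5 of slit.robo was low for obst-E (13.51, others 13.73 to 13.79) and for kkv (11.84, others 11.97 to 12.01). Replicate 4 of slit was high for obst-E (12.45, others 11.78 to 11.86). These 3 arrays also stood apart in the SD of their log2 values. The remaining cases were UC replicate 1 for obst-E (13.43, low), UC2x replicate 4 for Cht6 (12.15, low), UC2x replicate 5 for Cda4 (14.35, high), UR2 replicate 3 for knk (12.01, low) and URyf.mef replicate 5 for serp (15.13, low).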

How the results depend on the processing

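Of 69 calls against WT, 43 held in the 8 fits of all groups, 35 of them also with the 2 groups alone and with each array left out; of 42 between related groups, 24 and 23 did. The 53 higher and 16 lower calls became 35 and 41 with quantile normalization, 34 and 29 with array SD as a covariate, 32 and 29 against the mean of the other 16 groups, and 40 and 6 with the 2 groups alone. Leaving out 1 array gave 60 to 70 calls against WT (41 to 54 higher, 11 to 19 lower), 38 to 44 between related groups, 350 to 442 pathway calls (419 with all arrays), and 7 in both F tests. Against the mean of the other 17 groups, WT differed in 3 genes (Cht6, obst-E and knk, background 48.9%), in 6 with quantile normalization and in 2 to 3 without 1 array. Replicate numbers did not pair the samples (median correlation of deviations 0.01 for same numbers, 181 of 627 pairs over 0.1); the replicate block gave 71 calls against WT, 42 between related groups and 408 pathway calls.

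Directions reversed in 33 cases, and the cause was not tested. With the second probe set, Cht6 was -0.18 in UC2x, -0.21 in UR, -0.18 in URyf.mef and -0.038 in robo/WT against WT, 0.23 in URyf - UR, -0.20 in URyf.mef - URyf and 0.024 in robo12 - robo; obst-E was -0.019 in UC2x and -0.042 in slit/WT against WT and 0.14 in comm - comm/WT; Cda4 was 0.31 in slit - WT and 0.057 in slit - robo, and serp 0.33 in UC - WT. With quantile normalization, Cda4 was -0.20 in UC2x, -0.15 in UNC5, -0.21 in UR and -0.12 in slit.robo against WT and -0.22 in URyf.mef - URyf, kkv was -0.035 in UNC5, knk -0.17 in URyf.mef and -0.028 in slit/WT, and serp -0.078 in UR, -0.12 in robo2, -0.09 in slit.robo and -0.05 for the mean of the other groups. With array SD as a covariate, obst-E was -0.06 in UC2x, knk -0.26 in URyf.mef, -0.078 in slit/WT and -0.063 in URyf.mef - URyf, and serp -0.06 in URyf.mef, -0.011 in URyf.mef - URyf and -0.074 for the mean of the other groups. Without comm/WT replicates 1 and 2, kkv was 0.017 in comm/WT. On the probe sets that stand for the genes, the serp and verm differences from WT, at most 0.16, are of the size of the shift of bright probe sets. Those of the other serp set ran further, from -0.30 to 0.51.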
